A study of Caenorhabditis elegans with 14 samples.

Results

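RNA polymerase II phosphorylated at serine 2 was compared between larvae held in starvation and larvae 1 hr after their first meal, using the 2 chromatin immunoprecipitation (ChIP) libraries made with the antibody named S2 in these states, of 14 samples in all. Whole larvae of C. elegans strain N2, the wild type, were used. Embryos hatched in medium without bacteria and entered L1 arrest, the growth stop of first-stage larvae that hatch without food. The arrest library came from larvae crosslinked after 12 hr of arrest, and the recovery library from larvae given E. coli HB101 at that point and crosslinked 1 hr later. Set beside them were the single S2 column for 6 hr of arrest, 2 libraries per state of the antibody 4H8, 1 per state of 8WG16, and 1 input column. ChIP pulls down the DNA that formaldehyde has fixed to a protein, and the density of its reads shows where that protein sat. All cells of the larva contribute, so fewer cells that use a gene and less polymerase per cell cannot be told apart.

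The largest subunit of RNA polymerase II ends in a long tail of heptad repeats. Serine 5 of the repeat is phosphorylated early in transcription, and serine 2 is phosphorylated as polymerase moves into the gene, mostly by the kinases CDK-9 and CDK-12, so that serine 2 phosphorylation is commonly read as a mark of elongation. Its level usually climbs toward the 3' end of a gene. By its catalogue number S2 recognises this form. The antibodies 4H8 and 8WG16 bind the same tail, 8WG16 mostly where it is unphosphorylated.

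The arrest library held 4272000 reads and the recovery library 3071000, and the median gene model held 55 and 41 reads in them. The window of 200 bp at the first annotated transcription start site (TSS) held a median of only 5 and 3 reads, so start values are less precise than gene values. With 3 reads, such a window reaches 3.51 RPKM in arrest and 4.88 RPKM in recovery, and lower densities could not be told from 0. RPKM is read density per kilobase, scaled to library depth. Changes are recovery minus arrest on the scale log2(RPKM + 5), which understates changes at low density. There was 1 library per state, so no p-value was computed for the S2 change. A gene or start counts here as higher (a gain) or lower (a loss) when it passed 2-fold on this scale and the mean of both libraries was at least 10 RPKM, near the median of the input. The size of difference to be met between like libraries was read from the 4H8 replicates, of which 0.982% of gene models in arrest and 0.913% in recovery differed by 2-fold, and 8.55% and 6.51% of start windows.

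Over gene models, S2 density was at least 2-fold higher after feeding in 448 of 6866 genes (6.52%) and at least 2-fold lower in 255 (3.71%). The median change of all 6866 was 0.03. The gains included 75 ribosomal protein genes, translation factor genes such as tct-1 and gut protease genes such as asp-1. The losses included acs-2 of fatty acid activation, gei-7 of the glyoxylate cycle and the autophagy genes lgg-1 and lgg-2. The same 2-fold limit was passed by 134 of 7091 genes (1.89%) between the S2 libraries of 6 hr and 12 hr of arrest. Between 6 hr of arrest and recovery, which share no arrest library with the main comparison but do share its recovery library, 537 genes were higher and 256 lower. The split depended on scaling: 372 genes were higher and 348 lower after centring on chemoreceptor genes, and 307 and 281 after quantile normalization. These scalings moved the median of all genes to -0.09 and 0.00.

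**Figure D1:**
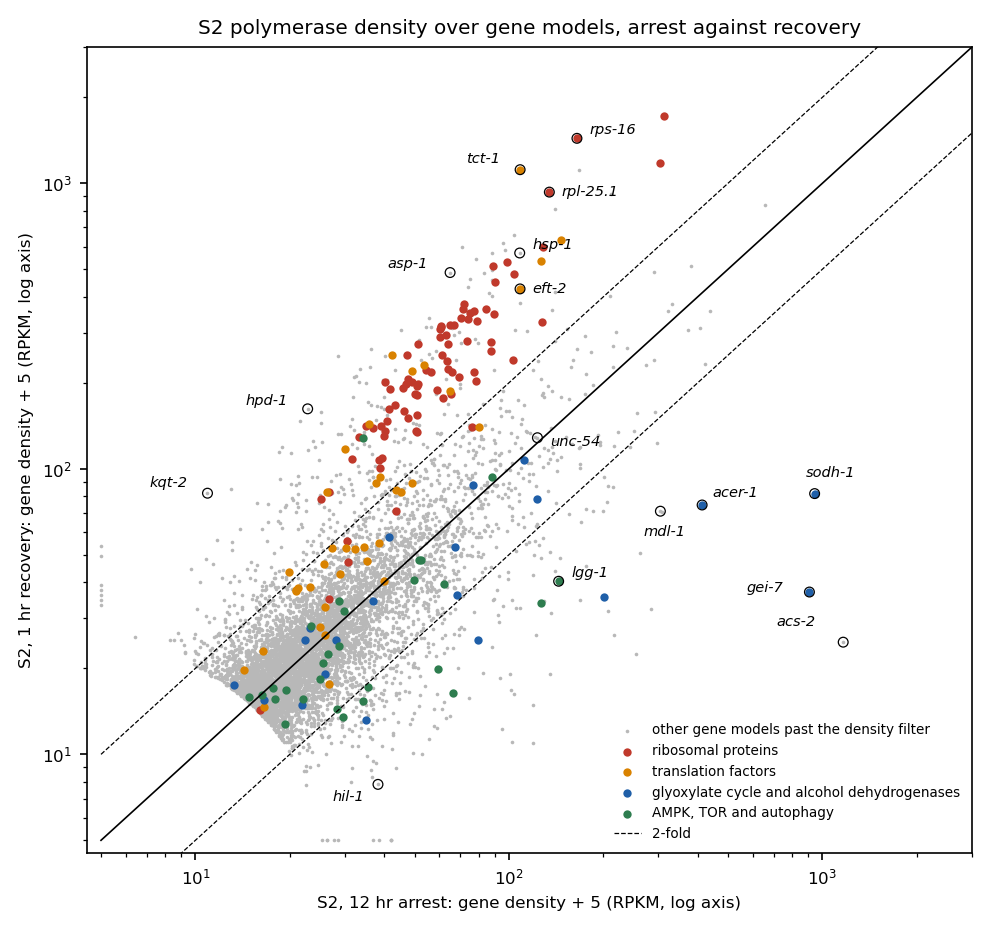
S2 density over 6866 gene models, as RPKM + 5 on log axes, in the 12 hr arrest library (horizontal) and the 1 hr recovery library (vertical). Each point is a gene model, colours mark 4 gene lists, circles mark named genes, the solid line is equality and the dashed lines are 2-fold. Ribosomal protein genes lie above the upper dashed line with 6 exceptions, while acs-2, gei-7, sodh-1 and acer-1 lie far below the lower one.

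Among the losses, acs-2 came first. It encodes an acyl-CoA synthetase that activates fatty acids for mitochondrial oxidation and is known as a fasting-induced gene (V:15567368-15569863 in WS190). Its S2 gene density was 694.52 RPKM at 6 hr of arrest, 1159.92 RPKM at 12 hr and 19.71 RPKM after feeding, against 28.62 RPKM in input. In arrest the 4H8 libraries read 989.59 and 1729.21 RPKM and 8WG16 970.8 RPKM. In recovery they read 26.37, 23.11 and 24.25 RPKM. All 5 arrest libraries thus stood far above input and all 4 recovery libraries below it. The S2 ratio was 58.9-fold, with a 95% interval of 50.2 to 69.6 that covers counting error only. The start window of acs-2 went with it, from 617.98 to 16.28 RPKM. The gene lsm-5, which encodes a splicing and RNA decay factor, begins 67 bp away, and its start window read 450.7 RPKM in arrest and 7.29 RPKM in recovery. ChIP reads carry no strand, so the share of each gene in such a window is unknown.

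The next losses belong to carbon use in starvation. The gene gei-7, called icl-1 in RefSeq, encodes the bifunctional isocitrate lyase and malate synthase of the glyoxylate cycle, which lets larvae make sugar from fat (V:724209-728105). Its S2 gene density was 904.01 RPKM in arrest and 32.02 RPKM in recovery, close to its input of 29.41 RPKM. The alcohol dehydrogenase gene sodh-1 (V:11888213-11889611) read 939.35 RPKM in arrest and 76.88 RPKM in recovery, which was still above its input of 21.03 RPKM. Both genes were already high at 6 hr of arrest, at 693.5 and 733.16 RPKM. Its neighbour sodh-2, 84 bp away, went from 195.52 to 30.69 RPKM. Of 20 glyoxylate cycle, alcohol and aldehyde dehydrogenase, and gluconeogenic entry genes past the density filter, 6 were lower, none was higher, and the median change was -0.39 against 0.03 for all genes. They were gei-7, sodh-1, sodh-2, the aldehyde dehydrogenase genes alh-1 and alh-12, and acer-1, at 408.34 RPKM in arrest and 69.69 RPKM in recovery.

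Fat oxidation as a whole did not move one way. Of 44 genes for acyl-CoA synthetases, dehydrogenases and other oxidation enzymes, 3 were lower, 3 higher and 38 within 2-fold. Of all genes 3.71% were lower and 6.52% higher. The median change of the 44 genes, 0.01, changes sign under both other scalings. The lower genes were acs-2, the lipid-binding far-7 and hacd-1, a hydroxyacyl-CoA dehydrogenase gene that read 256.25 RPKM in arrest and 45.74 RPKM in recovery. The higher ones were acs-1, acox-1.1 and acox-1.5, the latter pair encoding peroxisomal acyl-CoA oxidases. The list thus ran from acs-2 to acox-1.5, which stood at 5.58 RPKM in arrest and 19.62 RPKM in recovery. Fatty acid synthesis and desaturase genes had a median change of 0.22, with 3 of 16 higher and 1 lower. After quantile normalization 1 was higher and 2 were lower.

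Some autophagy and energy-sensing genes were among the losses. Of 28 genes for AMP-activated kinase (AMPK), TOR signalling and autophagy, 7 were lower, 1 higher and 20 within 2-fold, with a median change of -0.28, where 3.71% of all genes were lower. The lower genes were aakg-4 and aak-2, a regulatory and a catalytic subunit of AMPK, the Atg8 genes lgg-1 and lgg-2, whose products coat the forming autophagosome, and atg-2, atg-13 and atg-18. S2 density over lgg-1 was 139.1 RPKM in arrest and 35.38 RPKM in recovery, and over aakg-4 61.13 and 11.43 RPKM. The higher gene, ragc-1, encodes a GTPase that acts on TOR and lies within 500 bp of rps-11. The insulin receptor gene daf-2 spans 33038 bp and read 20.78 RPKM in arrest and 7.32 RPKM in recovery, below its input of 10.1 RPKM. The downstream kinase gene akt-1 read 37.66 and 6.86 RPKM and lies within 500 bp of rop-1, whereas daf-16, the gene of the FOXO factor that they restrain, read 46.4 and 30.15 RPKM. Of 11 insulin-to-FOXO genes 2 were lower and none higher.

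Some transcription factor and linker histone genes were lower too. Among 28 bZIP, bHLH and immediate early factor genes, 25 were within 2-fold, 3 were lower and none was higher, beside the 3.71% of all genes that were lower. The lower ones were mdl-1, a Mad-like repressor gene at 299.24 RPKM in arrest and 66.04 RPKM in recovery, zip-2 at 292.47 and 118.41 RPKM, and mxl-3, a Max-like repressor gene of lysosomal fat breakdown, at 87.63 and 25.68 RPKM. Linker histone genes, whose products bind DNA between nucleosomes, had a median change of -0.89 over 7 genes. The 2 that passed 2-fold were hil-1, from 33.23 to 2.85 RPKM, and hil-7, from 35.03 to 8.3 RPKM, while his-24 read 136.39 and 71.04 RPKM. Of 12 genes known as DAF-16 targets, hil-1 among them, 4 were lower, none was higher, and as deposited all 12 had a change below 0. Other large losses at genes without a list of their own were dap-1, the worm homologue of the mammalian autophagy regulator DAP1, at 278.47 and 27.2 RPKM, the pantothenate kinase gene pnk-1 at 88.74 and 13.51 RPKM, and the nuclear receptor gene nhr-19 at 59.98 and 8.58 RPKM. The models of dap-1, lgg-2 and nhr-19 overlap those of T28F4.6, lsm-7 and mrpl-53, which were lower as well.

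**Figure D2:**
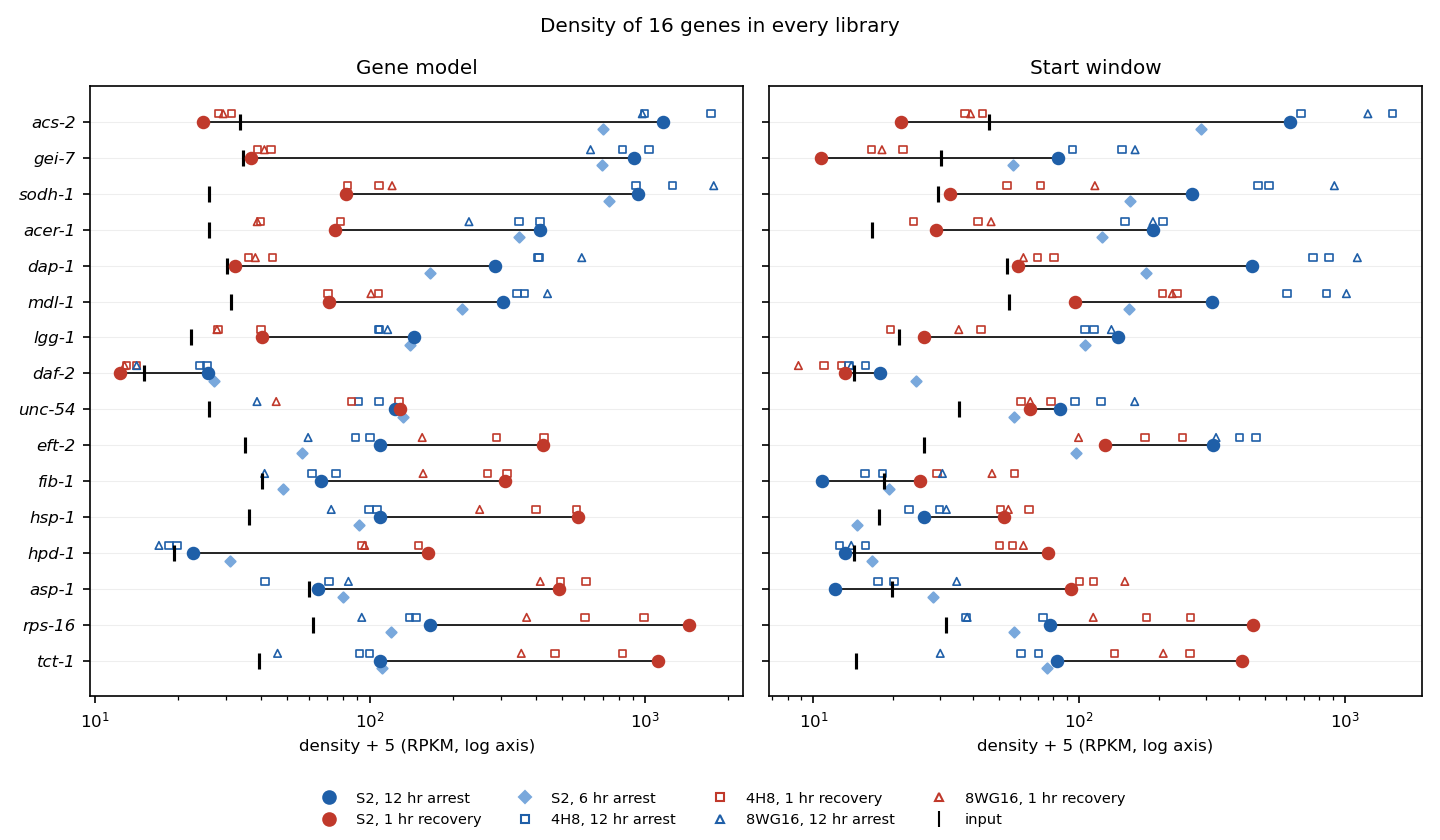
Density of 16 genes in every library, as RPKM + 5 on a log axis, over the gene model (left) and the start window (right). Filled circles joined by a line are the S2 libraries of 12 hr arrest (blue) and recovery (red), diamonds the S2 column of 6 hr, squares 4H8, triangles 8WG16 and black ticks input. From acs-2 down to lgg-1 the arrest libraries lie to the right, from fib-1 down to tct-1 the recovery libraries do, and at eft-2 the order is opposite in the 2 panels.

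Ribosomal protein genes gained S2 density almost as a class. Of 81 past the filter 75 were at least 2-fold higher and none was lower, with a median change of 1.95. Their median density was 55.28 RPKM in arrest and 203.98 RPKM in recovery, where 6 hr of arrest gave 32.15 RPKM and input 41.59 RPKM. The highest change was at rps-16 (V:14999993-15000570), which read 159.84 RPKM in arrest and 1431.39 RPKM in recovery. With the 4H8 libraries rps-16 read 141.73 and 134.37 RPKM in arrest and 984.51 and 598.57 RPKM in recovery, so recovery stood above arrest in each antibody. The 6 that did not pass were rpl-37, rpl-24.2, rpl-11.1, rpl-25.2, rpl-29 and rps-23. Of these, rpl-24.2 encodes a protein of ribosome assembly, and rpl-25.2 and rpl-11.1 have close copies that were higher. How reads shared by such copies were counted is not stated, so these values are uncertain.

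Some of the other higher genes lay beside them. Of the 373 higher genes that are not ribosomal protein genes, 69 (18.5%) lay within 500 bp of one, compared with 90 of 6785 (1.33%) of all such genes past the filter. None of the 255 lower genes did. Examples are nbs-1, 91 bp from rpl-41, at 65.96 RPKM in arrest and 594.97 RPKM in recovery, ins-17, an insulin-like peptide gene that overlaps rps-1, at 83.19 and 564.66 RPKM, and hhat-2, which overlaps rps-18, at 20.11 and 153.68 RPKM. Whether S2 polymerase on these neighbours belongs to them or to the ribosomal protein gene was not tested. The other 304 higher genes had no ribosomal protein gene within 500 bp.

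Translation factor genes were higher less uniformly, 14 of 38 with a median change of 0.85. Of all genes 6.52% were higher. The largest gain of any gene model of at least 500 bp was at tct-1, the gene of the translationally controlled tumour protein, which read 103.59 RPKM in arrest and 1110.55 RPKM in recovery (I:10569097-10570019). It lies 84 bp from rpa-0, the gene of the ribosomal stalk protein P0. Elongation factor 2, eft-2, read 103.53 and 421.54 RPKM, and eft-3, an elongation factor 1A gene with the close copy eft-4, 141.39 and 626.71 RPKM. Genes of ribosome assembly in the nucleolus gave 9 higher of 26, or 7 under each of the other scalings, with a median change of 0.54. Among them were fib-1 (fibrillarin, the methylase of ribosomal RNA), at 61.07 and 305.22 RPKM and 56 bp from rps-16, and nol-56, at 34.92 and 156.93 RPKM with no such neighbour. Aminoacyl-tRNA synthetase genes, which charge tRNAs, had a median change of 0.60, and 2 of 27 were higher, a share near that of all genes. Under both other scalings 0 were higher. Chaperone genes gave 9 higher and 1 lower of 49, with 5 higher under each of the other scalings. The higher ones include hsp-1 (HSC70), at 103.26 and 564.8 RPKM, daf-21 (HSP90), at 53.47 and 178.25 RPKM, and the mitochondrial chaperonin gene hsp-60, at 21.98 and 85.68 RPKM. The lower one was pfd-6, a prefoldin subunit gene.

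Some digestive and catabolic genes were among the gains. The aspartic protease gene asp-1 (V:19049422-19050789), expressed in the intestine, read 59.93 RPKM in arrest and 481.72 RPKM in recovery, and the cathepsin B-like gene cpr-4 read 26.79 and 173.82 RPKM. In arrest both lay near their input, 54.93 and 32.21 RPKM. Of 31 protease, saposin-like and lysozyme genes 8 were higher, 1 lower and 22 within 2-fold, with a median change of 0.47. Of all genes 6.52% were higher and 3.71% lower. The lower member, cpr-6, is a cathepsin B-like gene as well. The tyrosine breakdown gene hpd-1 (4-hydroxyphenylpyruvate dioxygenase) read 17.81 and 157.17 RPKM, and 2 of 6 genes of that pathway were higher. Under both other scalings 1 was higher. The transporter gene pgp-14 read 13.83 and 113.97 RPKM and tald-1, which encodes transaldolase, 27 and 204.55 RPKM. The model of tald-1 overlaps that of the higher gene Y24D9A.4, and the start of tald-1 read 17.4 and 15.4 RPKM. To which gene the gain over tald-1 belongs was not tested.

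Tissue markers and some other classes are set here beside the 6.52% of all genes that were higher and the 3.71% that were lower. The body wall muscle myosin gene unc-54 read 118.31 RPKM in arrest and 123.48 RPKM in recovery, and the intestinal GATA factor gene elt-2 11.88 and 13.55 RPKM, below its input of 17.31 RPKM. Another body wall myosin gene, myo-3, was lower, at 53.52 and 17.05 RPKM. Of 9 intestine markers 1 was higher and 2 were lower as deposited, and 0 and 2 under both other scalings. The higher one was the intestinal actin gene act-5, at 36.55 and 81.37 RPKM, and the lower ones were the metallothionein gene mtl-1, at 24.74 and 6.62 RPKM, and the ferritin gene ftn-1, at 17.46 and 4.1 RPKM. No gene of 19 for the vacuolar ATPase or of 32 for the proteasome passed 2-fold over the gene model. Of 32 body wall muscle genes 2 were lower and none higher, myo-3 and cpn-3, the latter with the larger change, and of 58 neuronal genes 3 were higher and 3 lower. Of 109 collagen and hypodermal genes 6 were higher and 2 lower, and only 44 of these exceeded their input in either library. The gene of the serine 2 kinase cdk-9 read 8.18 and 9.59 RPKM and that of the elongation factor spt-5 25.92 and 29.85 RPKM.

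**Figure D3:**
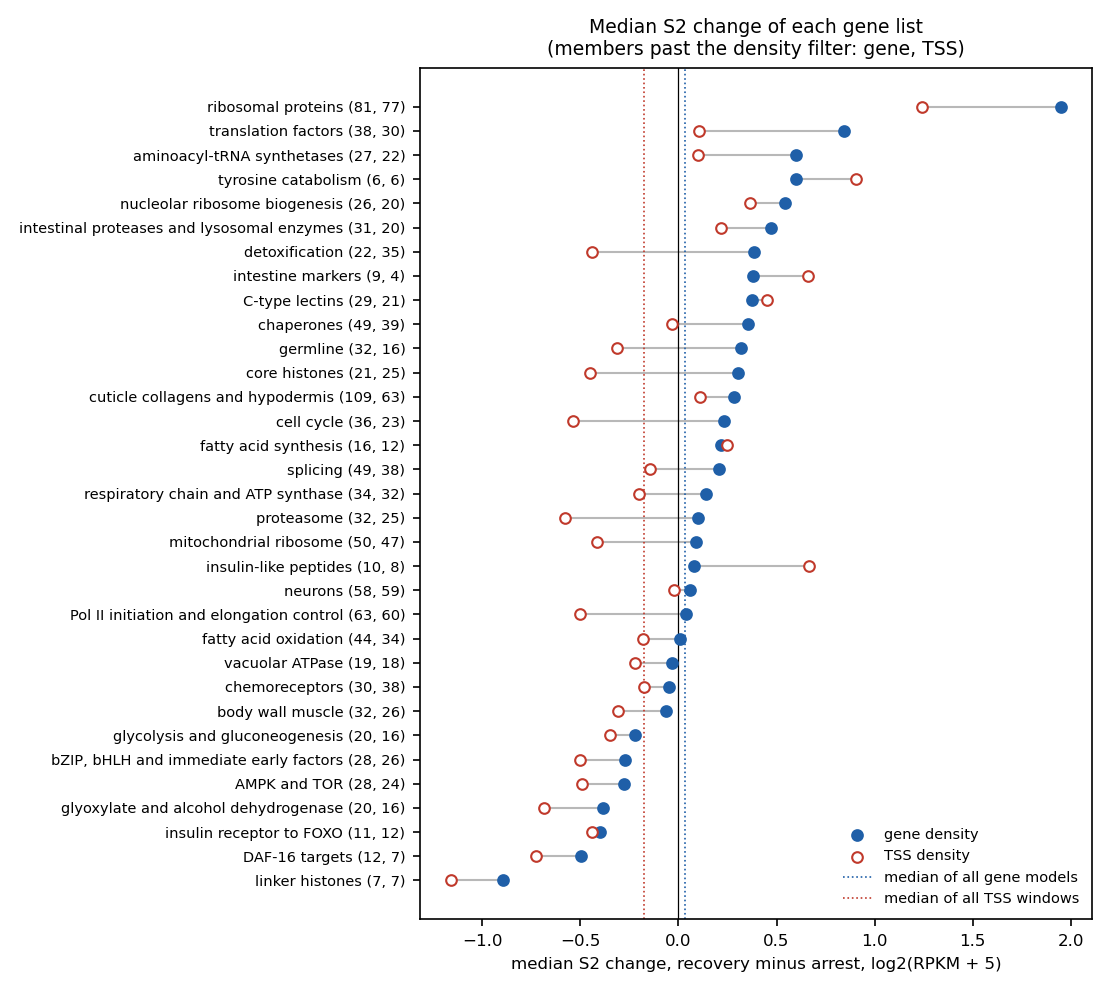
Median S2 change of 33 gene lists, recovery minus 12 hr arrest on log2(RPKM + 5), over gene models (filled) and start windows (open), with the numbers of members past the density filter. Dotted lines are the medians of all gene models, 0.03, and of all start windows, -0.18. Ribosomal proteins stand at 1.95 and 1.24, linker histones at -0.89 and -1.16, and the start median lies below the gene median in most lists.

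Start windows behaved otherwise. Of 6160 windows past the filter, 433 (7.03%) were at least 2-fold higher after feeding and 1128 (18.3%) at least 2-fold lower, and the median change was -0.18. Windows were also grouped by the sum of their reads in both libraries. The arrest library is deeper, so at one mean density a lost window holds more reads than a gained one. The grouping thus sets part of the balance within each group. Among 1366 windows of under 20 reads 6.44% were higher and 7.17% lower, with a median change of 0.01. Losses were 18.9% against 5.09% of gains among windows of 20 to 50 reads, and among 710 windows with at least 100 reads 16.1% were higher and 29.0% lower. The excess of losses depended on the arrest library chosen. Against the 6 hr S2 column 654 windows were higher and 573 lower, and between 6 hr and 12 hr of arrest 917 of 6417 windows were higher and 244 lower. These comparisons share the recovery or the 12 hr library with the main one. Quantile normalization gave 527 higher and 706 lower with a median of 0.01, and centring on chemoreceptor genes 349 and 1303 with a median of -0.31. In the libraries of other antibodies losses from 12 hr outnumbered gains as well, at 1115 against 471 windows and 753 against 387 in the 4H8 pairs and 1689 against 933 with 8WG16.

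Lower starts were set beside the gene models of the same genes. In the 4421 genes where both measures passed the filter, 3897 gene models were within 2-fold, 348 higher and 176 lower. Of the 803 genes with a lower start, 681 (84.8%) had a gene model within 2-fold, 112 (13.9%) a lower one and 10 a higher one. Since 3897 of all 4421 gene models were within 2-fold, the 84.8% is not particular to lower starts. Seen from the gene model, 63.6% of the lower ones had a lower start, against 17.5% of those within 2-fold and 2.87% of the higher ones. Of 335 higher starts, 193 (57.6%) had a higher gene model. No gene with a lower gene model had a higher start. The start window does not always lie wholly inside the gene model: at egl-30 in recovery it held 3974 reads and the model 2167. Where window and model overlap, the 2 measures share reads, most of all in short genes.

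**Figure D4:**
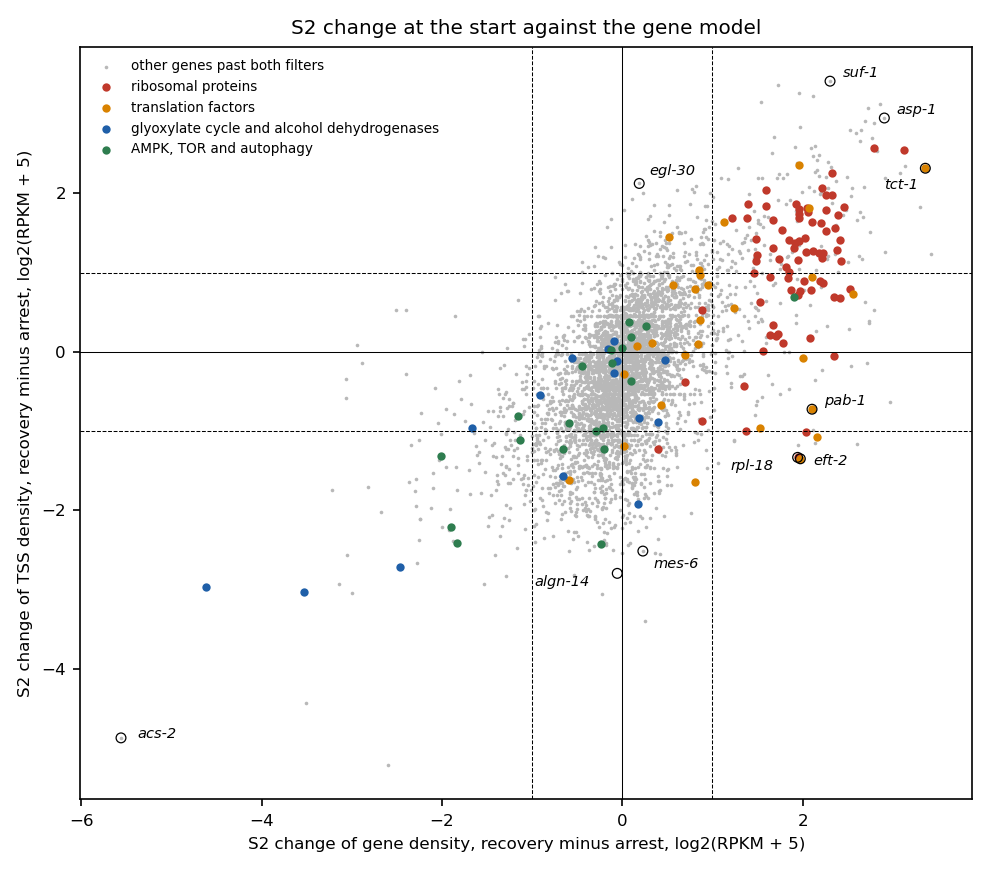
S2 change of the start window (vertical) against that of the gene model (horizontal) for 4421 genes, recovery minus 12 hr arrest on log2(RPKM + 5). Each point is a gene, colours mark 4 lists, and dashed lines are 2-fold. The 681 genes between the vertical dashed lines and below the lower one had a lower start and a gene model within 2-fold, and eft-2, rpl-18 and pab-1 lie to the right with starts below 0.

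Genes with a lower start and a gene model within 2-fold include mes-6, which encodes a subunit of the worm Polycomb complex. Its start window read 51.5 RPKM in arrest and 4.89 RPKM in recovery, and its gene model 15.72 and 19.27 RPKM. At 6 hr of arrest the start of mes-6 read 7.72 RPKM, near the recovery value. The glycosylation gene algn-14 read 74.91 and 6.51 RPKM at the start, 19.29 RPKM at 6 hr, and 8.99 and 8.46 RPKM over the gene, below its input of 11.39 RPKM, so its gene model did not pass the density filter and is not among the 4421. Several of these starts rest on few reads: mes-6 had 44 in arrest and 3 in recovery, and the start of lin-9, a gene of a repressor complex of the cell cycle, had 22 and 0. The gene model of lin-9 did not pass the filter either. Its start change was 0.91 and 0.37 in the 4H8 pairs, opposite to S2, and -0.85 with 8WG16. At 6 hr of arrest the S2 start of lin-9 read 0 RPKM. Genes of RNA polymerase II and its control gave 2 higher and 2 lower of 63 gene models, and 2 higher and 15 lower of 60 starts, where 18.3% of all starts were lower. Their medians were 0.04 and -0.50, and no test sets these genes apart from the rest. The gene-model median is below 0 after centring on chemoreceptor genes. Proteasome genes gave 7 lower starts of 25, beside the same 18.3% of all starts, and a start median of -0.58, and a gene-model median of 0.10 that turns below 0 under both other scalings. The start of the proteasome lid gene rpn-9 read 78.42 RPKM in arrest and 9.77 RPKM in recovery while its gene model read 26.91 and 24.76 RPKM. The start of the polymerase subunit gene rpb-7 read 77.83 RPKM at 6 hr, 556.46 RPKM at 12 hr and 248.54 RPKM after feeding. Of the examples given here and below, rpn-9, rpb-7, rps-20, rps-22, iff-2 and mir-84 were chosen after their values were seen.

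Measured from 12 hr of arrest, the S2 start loss was larger in genes with a higher ratio of 4H8 start to gene density in arrest. The ratio was taken in the same 12 hr state from which the change was measured. Grouping by it can therefore favour a loss, and how much was not tested. The 5' bias of a gene is the log2 ratio of its start to its gene density, each with 5 RPKM added, and genes of at least 1000 bp were grouped by the mean bias of both 4H8 arrest libraries. In the 304 genes with a 4H8 bias of at least 2, all with a start past the filter, the S2 start change had a median of -0.84, 45.7% of starts were lower and 8.88% higher. Of the 1081 genes with a bias below -1 only 262 had a start past the filter, and over these 262 the start median was -0.07, with 11.8% lower and 9.16% higher. The median change of the gene model was 0.00 in the 304 genes and -0.04 in the 1081. In the class of high bias the median S2 start density was 63.65 RPKM at 6 hr of arrest, 133.3 RPKM at 12 hr and 71.65 RPKM in recovery. Over the 262 starts of the lowest class it was 15.43, 16.39 and 14.67 RPKM, beside an input median of 10.08 RPKM over all starts. Starts that low have less room for a 2-fold loss, and whether the loss follows start density was not tested. Measured from the 6 hr column, the start median of the class of high bias was 0.33, with 17.8% higher and 3.95% lower. The 6 hr column differs from the 12 hr library in age of the larvae, depth and run code in the labels, and these cannot be told apart. Across genes the 4H8 bias and the S2 start change had a Spearman correlation of -0.17 (3484 genes, a description over genes of shared libraries).

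**Figure D5:**
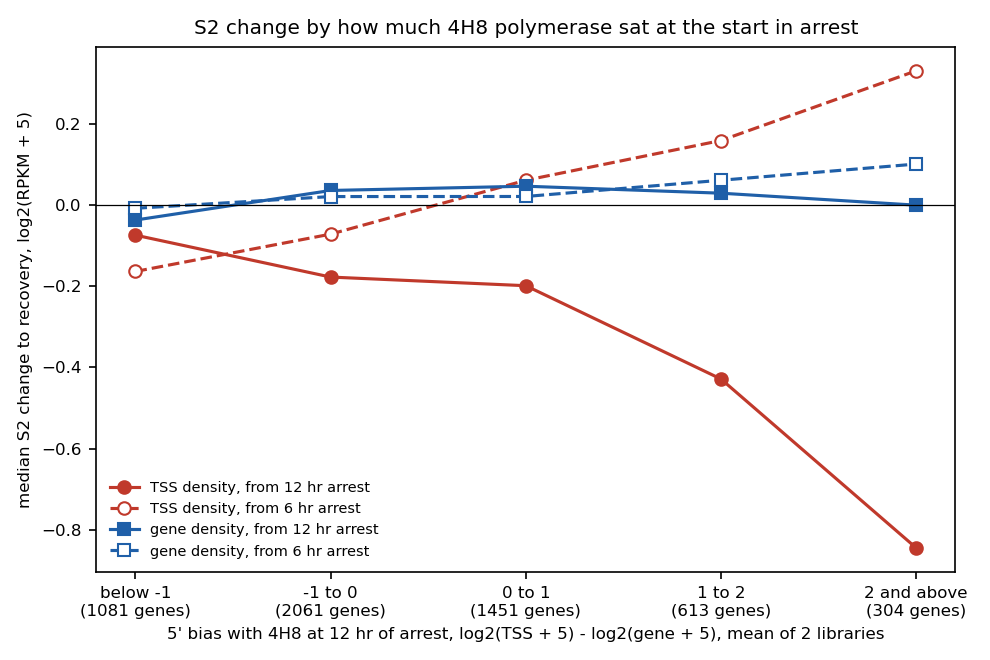
Median S2 change to recovery on log2(RPKM + 5) in 5 classes of genes by the 4H8 5' bias at 12 hr of arrest, for start windows (red circles) and gene models (blue squares), measured from 12 hr (solid) or 6 hr of arrest (dashed). From 12 hr the start median goes from -0.07 in the lowest class to -0.84 in the highest, from 6 hr it goes from -0.16 to 0.33, and the gene-model medians stay between -0.04 and 0.10.

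The ratio of start to gene density summarises this within the S2 libraries. Among 7059 genes of at least 1000 bp, S2 5' bias was at least 2-fold lower in 1063 (15.1%) and at least 2-fold higher in 221 (3.13%). At some genes of translation the gene model was higher while the start was not. At eft-2 the start read 314.84 RPKM in arrest and 120.5 RPKM in recovery, as its gene model went from 103.53 to 421.54 RPKM. The start of eft-2 read 92.58 RPKM at 6 hr, and 4H8 gave the same order, at 458.88 and 397.35 RPKM in arrest against 240.03 and 172.26 RPKM in recovery. The poly(A)-binding protein gene pab-1, 387 bp from rpl-30, read 133.4 and 78.79 RPKM at the start and 48.78 and 226.26 RPKM over the gene. At 6 hr of arrest the start of pab-1 read only 26.96 RPKM, below its recovery value. For rpl-18 the start values were 36.28 and 11.4 RPKM and the gene values 45.84 and 190.68 RPKM. The start of rpl-18 held 31 and 7 reads, and at 6 hr it read 11.57 RPKM, near the recovery value.

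Most ribosomal protein starts nevertheless gained. Of 77 start windows 47 were higher and 3 lower, with a median of 1.24. Of the 73 ribosomal protein genes with a higher gene model and a start past the filter, 47 starts were higher and 5 had a start change below 0. Among those 5 are rps-20, at 271.54 RPKM in arrest and 133.53 RPKM in recovery, and rps-22, at 142.79 and 68.39 RPKM. In translation factor genes the start changes divided more evenly, 6 higher and 5 lower of 30, around a median of 0.10 that turns below 0 after centring on chemoreceptor genes. The start of iff-2, the gene of initiation factor 5A, read 882.5 RPKM in arrest and 451.06 RPKM in recovery, with 754 and 277 reads, and its gene model 59.89 and 181.59 RPKM.

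The largest start gains lay next to genes with large body gains. The start of suf-1, which encodes a cleavage stimulation factor subunit, read 172.05 RPKM in arrest and 1884.03 RPKM in recovery and lies 264 bp from rpl-26. Those of inx-7, an innexin gene 356 bp from rps-25, and pst-2, a nucleotide sugar transporter gene 310 bp from rps-12, read 163.86 and 1742.36 RPKM, and 85.44 and 797.9 RPKM. The start of egl-30, the Gq alpha gene, read 1479.42 and 6469.54 RPKM while its gene model read 111.73 and 127.98 RPKM, and rpl-27 lies 239 bp away. By contrast the starts of asp-1, at 7.02 and 87.93 RPKM, and of the saposin-like gene spp-23, at 17.56 and 151.44 RPKM, had no higher gene within 500 bp.

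Gene length went with the share of changed genes. Among 1356 gene models under 1000 bp 12.9% were higher and 5.68% lower, and among 559 of at least 8000 bp 1.79% and 2.68%. At a given RPKM a short gene holds fewer reads. By chromosome the share of higher genes lay between 4.52% on X and 8.3% on IV, and that of lower genes between 1.75% on I and 5.88% on V.

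The S2 calls were also read in the libraries of the other antibodies, which share no library with them. Of the 448 genes with higher S2 gene density, 357 (79.7%) and 246 (54.9%) were at least 2-fold higher in the 4H8 pairs and 244 (54.5%) with 8WG16, and 418 had a change above 0 in all 3 pairs. Among all gene models past the filter in each pair, 7.19% and 4.13% were higher with 4H8 and 5.37% with 8WG16. Seen from the other side, 78.6% and 86.1% of the higher 4H8 calls and 81.5% of those with 8WG16 were higher with S2. Of the 255 lower genes, 175 (68.6%) were lower in each 4H8 pair and 144 (56.5%) with 8WG16, where 3.31%, 3.44% and 3.72% of all gene models were lower. The start calls were shared less. Among all starts past the filter, 17.9% and 10.7% were lower with 4H8 and 20.2% with 8WG16, and 7.57%, 5.5% and 11.2% were higher. The median start change was already below 0 in each pair, at -0.22, -0.10 and -0.04. The share of all genes or starts with 1 sign in all 3 pairs was not computed. Of the 1128 lower starts 917 (81.3%) were below 0 in all 3 pairs and 284 (25.2%) were 2-fold lower in all 3. Of the 433 higher starts 288 (66.5%) were above 0 in all 3 and 92 (21.2%) were 2-fold higher in all 3. Whether chromatin was shared between antibodies is not stated.

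A test was possible only of the difference between antibodies, the S2 change minus the 4H8 change, in which the lone S2 libraries are assumed to vary like the 4H8 replicates. By limma with Benjamini-Hochberg adjustment, 1 of 7214 gene models (0.0139%) passed an adjusted p of 0.05, and 97 passed an unadjusted p of 0.05. For start windows 0 of 6807 passed (0%), and 196 passed without adjustment. The gene that passed was mir-84, a microRNA gene of 22 bp with 3 S2 reads in arrest and 0 in recovery, at most the 3 reads taken as a floor. The median 95% interval of the difference was 0.71 wide on either side for gene models and 1.34 for start windows. At a feature with an interval of that width, a smaller difference between antibodies could not be told from 0 even without adjustment. Some features had narrower intervals. For acs-2 the difference was -0.09 (95% interval -1.53 to 1.35), for rps-16 0.69 (-0.73 to 2.1) and for eft-2 0.07 (-1.19 to 1.33), each with an adjusted p of 1 by limma. At the start of egl-30 the S2 change exceeded that of 4H8 by 1.22 (0.25 to 2.18), with an adjusted p of 1 by limma.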

How the data were processed

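The authors deposited read densities in RPKM over each gene model of WS190 and over 200 bp at its first annotated start, and fold enrichments over input and a 5' bias as ratios, per the file headers and the series' design text. Which aligner was run is not given in the sources used here. A single input column was taken as a pool of 4 samples, and the single 6 hr S2 column stands for 2 samples. Depth was read from the step that 1 read makes in low start densities: 90.1% to 91.9% of start values were whole reads within 0.1 read, at 1322000 to 5863000 reads per ChIP library and 11905000 for input. Intervals of density ratios are exact binomial 95% intervals on recovered reads and cover counting error only.

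Changes were computed as log2(RPKM + 5). The S2 against 4H8 difference was tested with limma 3.58.1 in R 4.3.3 (trended eBayes, two-sided, 8 libraries in 6 groups, group means), checked on simulated data; variances there rest on 2 residual degrees of freedom and a prior of 4.04 for gene models and 40.37 for starts. The 4H8 samples are biological replicates per the series' design text. Tables and plots used Python 3.11.15, pandas 2.3.3, numpy 2.4.6, scipy 1.17.1 and matplotlib 3.10.9.

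Members and gene lists were chosen with earlier results of these data known. In the ribosomal protein list, 2 replication protein A genes that shared an old name were replaced by the stalk gene rplp-2.1, and lpd-2 was taken out of the ribosome assembly list, after values were seen. Named genes with a public symbol and a density above input were the 15 largest rises and 15 largest falls of gene density in models of at least 500 bp, the 8 largest rises and falls of start density not yet named, the 6 largest rises and falls of 5' bias, the 3 largest changes in each list, and preset anchor genes. Names came from the deposited tables and from RefSeq (WBcel235), which matched 19707 of 20315 sequence names, with coordinates left in WS190. Alternatives were other pseudocounts, filters, fold limits and scalings, the authors' enrichments, the 6 hr column as arrest, a replicate block and 4H8 libraries left out.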

Additional observations from a re-analysis of the deposited data

Results flagged for a closer look

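The gene mir-84, a microRNA of the let-7 family, was picked out because its S2 change differed from its 4H8 change. The difference of gene density was -5.41 on the log2 scale (SE 0.35), with an adjusted p of 0.0338 by limma. Its model spans 22 bp and held 3 S2 reads in arrest and 0 in recovery, whereas 4H8 read 0 RPKM in arrest and 21.17 and 24.37 RPKM in recovery. The 3 S2 reads made 33.44 RPKM, so the 4H8 values rest on few reads as well.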

How the results depend on the processing

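Calls rest on 1 library per state, so limits on error come from 4H8 and from counting. Raising the fold limit to 3 left 223 higher and 85 lower gene models and 149 higher and 406 lower starts, and lowering it to 1.5 gave 990, 691, 977 and 1995. A pseudocount of 1 gave 394 lower gene models, and 481 higher and 1599 lower values of 5' bias. A pseudocount of 10 gave 120 and 704. The authors' enrichments without a pseudocount gave 444 lower gene models, 699 higher starts and 531 higher values of 5' bias. Without a density filter 813 starts were higher and 1786 lower, and with a filter of 20 RPKM 710 were lower. Quantile normalization gave 706 lower starts, and the 6 hr column as arrest 654 higher and 573 lower. Windows with at least 50 reads, an alternative chosen after seeing the data, held 194 higher and 471 lower starts. Only the 6 hr column put higher starts above lower ones. Pseudocount 1 moved the change of 21 of the 149 named genes.

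For the S2 against 4H8 difference, pseudocount 1 gave 2 gene models and no filter 3, and quantile normalization 2 starts. Leaving out each 4H8 library in turn gave 0 to 38 gene models and 0 to 4 starts, with 35 and 38 gene models without arrest replicate 1 or 2 and 0 without either recovery library. The cause was not tested. With the replicate number as a block the counts were 22 gene models and 4 starts. Same-numbered 4H8 libraries deviated together (correlation 0.35 for gene models and 0.24 for starts), but with 2 pairs and no statement in the labels the numbers were not taken to pair the samples. Median start reads of 5 and 3 limit all start values.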
